A study of Mus musculus with 48 samples.

Results

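Knee joints that had been mechanically loaded and treated with nanoparticles carrying small interfering RNA (siRNA) against Mmp13 were compared with healthy joints, to ask which inflammation genes remained away from the healthy level under this treatment. The comparison takes 24 of the 48 samples of the series, 12 treated (siMMP13) and 12 healthy, chosen by their titles. All samples came from male C57BL/6 mice labelled as 3 months old. Healthy joints were neither loaded nor treated. In the siMMP13 group, knees of mice aged 8 weeks received 500 cycles of compression at 9 N, repeated 5 times per week for 4 weeks, a noninvasive model of post-traumatic osteoarthritis. The siRNA was carried by polymer nanoparticles conjugated to an antibody to type II collagen, the main collagen of cartilage. Other loaded joints received no treatment (untreated, n = 12) or the same carrier with a negative control siRNA (siNEG, n = 12), and their values are given beside those of siMMP13. Because the siMMP13 and healthy groups differ in both loading and treatment, the shares of loading and of treatment cannot be told apart from this comparison alone. The dose, route and timing of treatment are not given in the sources used here, and the labels do not say whether each sample is a separate animal.

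Each sample was total RNA from synovium combined with cartilage and the bone beneath it. RNA was counted with the NanoString nCounter mouse inflammation panel, in which a barcoded probe is hybridised to each transcript and counted without amplification. Of 248 endogenous genes, 196 had over 20 counts in at least 12 of the 48 samples and were tested. The other 52 did not pass, among them Ifng, Il10, Il17a and Il4. Values below are normalized counts, meaning counts divided by the sample's geometric mean of 6 housekeeping genes relative to the other samples. None of the 5 cartilage and synovial lining markers listed (Col2a1, Acan, Prg4, Sox9 and Mmp13) has a probe among those analysed here. The presence of cartilage RNA and the silencing of Mmp13 were therefore not measured.

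Joint inflammation in this setting is known to involve resident and recruited macrophages of the synovium. Chemokines are small secreted proteins that draw leukocytes through receptors named for their class, CCR for CC and CXCR for CXC ligands. Type I interferons act through receptors and transcription factors, Stat2 among them, to switch on antiviral genes such as the Ifit and Oas families, and IL-1 and TNF act through NF-kB and MAP kinases to induce metalloproteinases and prostaglandin synthesis.

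Total gene counts ran from 36415 to 217805 in healthy samples (median 113746.5) and from 61094 to 302377 in siMMP13 samples (median 148380.5). Negative control probes averaged 7.14 counts in healthy and 8.47 in siMMP13 samples, and the highest single negative value was 26. In 4 libraries the 6 housekeeping genes departed from their usual ratios (root mean square deviation above 0.6 on the log2 scale, a limit set after the data were seen), namely healthy replicate 2 and siMMP13 replicates 7, 8 and 11. These 3 siMMP13 libraries had totals of 61094, 62095 and 89728. Results are given for all samples, and for many genes also without these 4 libraries.

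Of the 196 genes, 97 differed between siMMP13 and healthy joints by edgeR's quasi-likelihood test (49.5%, adjusted p under 0.05), 68 higher (34.7%) and 29 lower (14.8%) with siMMP13. Without the 4 libraries 121 were called, 82 higher and 39 lower, and 88 of these were among the 97. The higher genes reached larger fold changes than the lower ones, since 32 were at least 2-fold higher and 11 at least 4-fold higher, against 2 genes, Retnla and Chi3l3, that were at least 2-fold lower. In these counts 6 higher genes near background (Arg1, Ccl4, Ptgs2, Masp1, Cxcl1 and Il6) enter at the lower bound of their fold, and by their fitted values the counts were 35 and 15. The fitted difference was under 1.5-fold for 37 called genes. The median log2 fold change over all genes tested was 0.14. With scaling by TMM, by DESeq2 size factors or by total count, the split of higher to lower genes was 54 to 52, 58 to 50 and 47 to 63. Under these scalings the median shift per gene of the log2 fold change was -0.15, -0.13 and -0.23. The balance of directions therefore depends on the scaling, whereas no gene was called in opposite directions under any alternative. For 12 of the 97 the 95% interval of the mean difference of log2(normalized count + 1) included 0, among them Myl2, Cxcl1, Tlr9, Mx1, C1s, Daxx and Hmgb2.

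**Figure D1:**
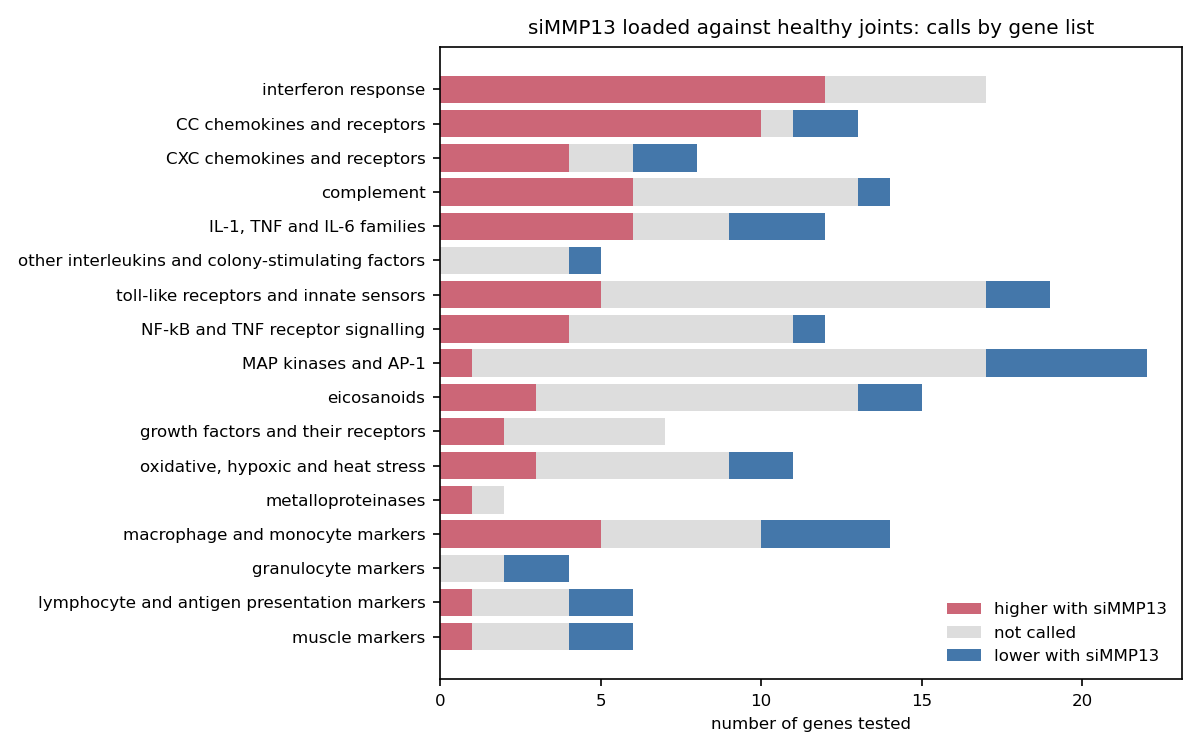
Number of tested genes in each list that were higher, not called or lower in siMMP13 against healthy joints (edgeR, adjusted p under 0.05), with the number of genes on the x axis; lists with fewer than 2 tested genes are left out. Interferon genes (12 of 17 higher, 0 lower) and CC chemokines with their receptors (10 of 13 higher) hold the most higher calls. Over all genes tested 68 of 196 were higher and 29 lower.

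Chemokine ligands had the largest fold changes. Of 13 CC chemokines and receptors tested, 10 were higher, 2 lower and 1 (Ccr1) not called, the median log2 fold change being 1.62 against 0.14 over all genes, and 9 were higher without the 4 libraries. Beside these counts, 34.7% of all genes tested were higher and 14.8% lower, and 82 of 196 were higher without the 4 libraries. Ccl2, which attracts monocytes, had 18.8, 105 and 1210 normalized counts in the lowest, median and highest healthy sample and 104, 1890 and 8380 in siMMP13 samples. The groups overlapped through the healthy replicate 5 at 1210 and siMMP13 replicate 8 at 104, which lie far from the rest of their groups, since the next healthy value was 316 and the next siMMP13 value 683. The fitted increase of Ccl2 was 11.1-fold (log2 fold change 3.47 ± 0.67 SE, n = 12 per group, edgeR adjusted p = 3.1e-06), and 4.32 on the log2 scale without healthy replicate 5.

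Ccl7, another monocyte attractant, had a healthy range of 10.2 to 267 (median 28.5) and a siMMP13 range of 27.2 to 1680 (median 393). The same 2 samples made its groups overlap, with the next values at 78.3 and 199. It was 9.29-fold higher (log2 fold change 3.22 ± 0.57 SE, edgeR adjusted p = 1.2e-06), and 3.89 on the log2 scale without healthy replicate 5. Ccl8, also a monocyte attractant, ran from 85.7 to 1130 (median 158) in healthy and from 387 to 4610 (median 1470) in siMMP13 joints. All 12 siMMP13 samples lay above the healthy median and 9 above the highest healthy sample, and the 3 lowest, at 387, 467 and 523, were the 3 libraries with divergent housekeeping genes. Its log2 fold change was 2.25 ± 0.48 SE (edgeR adjusted p = 1.1e-05).

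Ccl5, a T-cell attractant, had a median of 217 (126 to 514) in healthy and 1030 (139 to 2070) in siMMP13 joints, with 9 of 12 siMMP13 samples above the healthy range (log2 fold change 2.05 ± 0.41 SE, edgeR adjusted p = 1.3e-05). Ccl4, a macrophage-derived attractant, exceeded the negative controls in 3 of 12 healthy samples and in 9 of 12 with siMMP13. Its difference is given as a bound, at least 2.38-fold higher (edgeR adjusted p = 2.3e-05). Ccl19, a ligand of the lymphoid homing receptor Ccr7, rose by 0.63 ± 0.19 SE (edgeR adjusted p = 0.0026) from a median of 136 (67.1 to 198) to 165 (137 to 440). Every siMMP13 sample lay above the healthy median, but without the 4 libraries its log2 fold change was 0.32 and the call was lost (edgeR adjusted p = 0.071). The remaining higher members were Ccl3, Ccl11, Ccl21a and Ccr2, at log2 fold changes of 1.62, 1.23, 1.99 and 0.55.

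Of 8 CXC chemokines and receptors, 4 were higher and 2 lower, with a median of 1.18, beside 34.7% and 14.8% of all genes tested. Cxcl10, an interferon-induced ligand of the T-cell receptor Cxcr3, ran from 19.6 to 387 (median 40.3) in healthy and from 83.5 to 1500 (median 497) in siMMP13 joints. Each siMMP13 sample exceeded the healthy median, and healthy replicate 5 at 387 stood apart from the next healthy value of 67. Cxcl10 rose by 2.96 ± 0.52 SE on the log2 scale (edgeR adjusted p = 2.4e-06), and by 3.75 without healthy replicate 5. Cxcl9, another interferon-induced ligand of this receptor, ran from 56.9 to 209 (median 112) and from 166 to 638 (median 470), with 11 of 12 siMMP13 samples above the healthy range (log2 fold change 1.84 ± 0.24 SE, edgeR adjusted p = 2.3e-07). Cxcl5, a neutrophil attractant, had medians of 31.1 and 58.4 (log2 fold change 1.31 ± 0.27 SE), while Cxcl1, from the same class, could be given only as at least 1.12-fold higher. Cxcl2 and Cxcl3, also neutrophil ligands, were not called, and their 95% intervals reached past 2-fold. Cxcl2 was called without the 4 libraries (log2 fold change 1.54, edgeR adjusted p = 0.04).

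The lower chemokine genes were all receptors. Ccr3, the eosinophil receptor for Ccl11, ran from 72.3 to 146 (median 106) in healthy and from 31.3 to 84.9 (median 51.3) in siMMP13 joints. Every siMMP13 sample lay below the healthy median and 10 of 12 below the lowest healthy sample (log2 fold change -0.92 ± 0.16 SE, edgeR adjusted p = 4.9e-05). Cxcr2, the neutrophil receptor for Cxcl1 and Cxcl5, had a log2 fold change of -0.57 ± 0.15 SE (median 591 in healthy, 354 in siMMP13), and Cxcr4, the receptor for Cxcl12, one of -0.55 ± 0.12 SE (medians 1480 and 1020). For both receptors 12 of 12 siMMP13 samples lay below the healthy median. Ccr7 had a log2 fold change of -0.38 ± 0.17 SE (edgeR adjusted p = 0.026), a call lost without healthy replicate 11 (adjusted p = 0.055), without Gusb in the scaling, with only the groups compared in the fit and with log2 Myl2 as a covariate (adjusted p up to 0.12). These are bulk samples, so fewer cells that carry a transcript and less of it per cell cannot be told apart. The summed level of the granulocyte markers, 5 of 8 of which have a probe, was 2260 to 6320 in healthy and 1530 to 5300 in siMMP13 joints (mean log2 difference -0.36, permutation test, adjusted p = 0.54). This difference was -0.59 without the 4 libraries, and 4 of the 4 tested granulocyte genes were called lower, against 2 with all samples. Over all genes tested 39 of 196 were lower without the 4 libraries, against 29 with all samples. The sum adds normalized counts, so the abundant Mmp9 weighs most in it. The part of granulocytes in the receptor values was not tested.

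**Figure D2:**
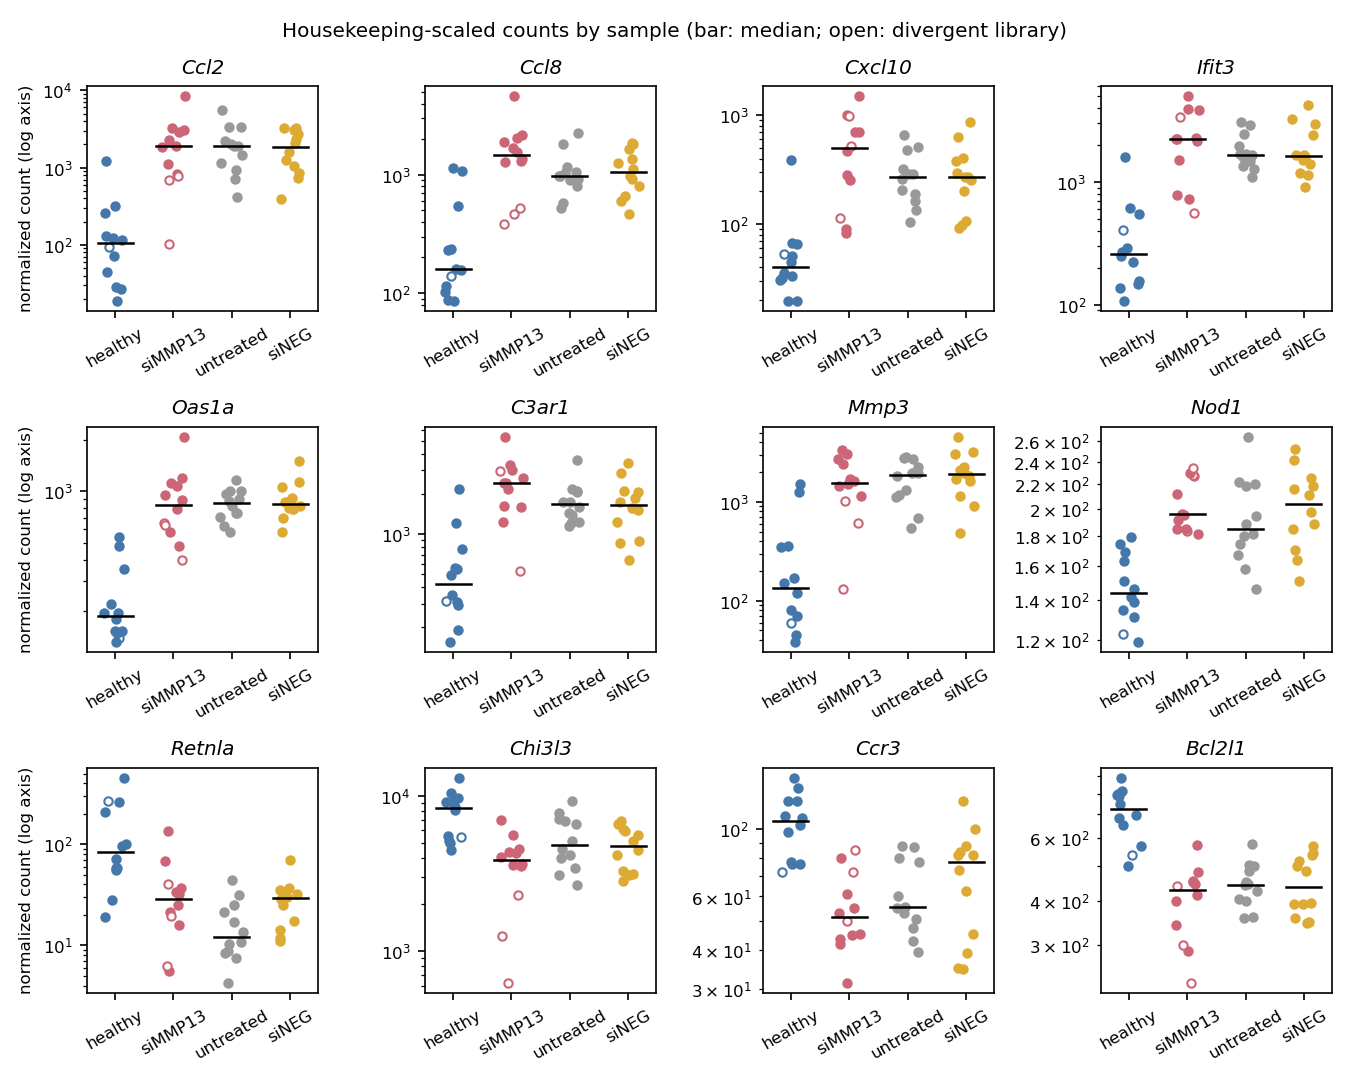
Normalized counts (log axis) of 12 genes in every sample of the 4 groups, with the group median as a bar and the 4 libraries with divergent housekeeping genes as open circles. The median of Ccl2 is 105 in healthy and 1890 in siMMP13 joints, and for Nod1 all siMMP13 samples lie above all healthy samples.

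Most interferon response genes were higher, and none was called lower. Of 17 tested, 12 were higher and 5 (Ifi27l2a, Irf1, Irf3, Irf5 and Hsh2d) were not called. The median log2 fold change was 1.59, and 15 were higher without the 4 libraries. Over all genes tested 34.7% were higher, and 82 of 196 without the 4 libraries. The interferons themselves (Ifna1, Ifnb1 and Ifng) did not pass the count filter. Ifit3, an antiviral effector, ran from 107 to 1590 (median 259) in healthy and from 560 to 4990 (median 2220) in siMMP13 joints. All 12 siMMP13 samples lay above the healthy median and 8 above the healthy range, whose top again was healthy replicate 5 at 1590, with the next healthy sample at 612. The log2 fold change was 2.58 ± 0.44 SE (edgeR adjusted p = 2.5e-07).

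Oas1a, which makes the activator of RNase L, had a median of 187 (132 to 544) in healthy and 834 (396 to 2070) in siMMP13 joints. In total 10 of the siMMP13 samples exceeded the healthy range (log2 fold change 1.90 ± 0.28 SE, edgeR adjusted p = 1.8e-08). Irf7, the transcription factor that amplifies interferon production, rose by 2.01 ± 0.40 SE, from a median of 199 (110 to 855) to 1190 (278 to 3060). Among the others, Oasl1 rose by 2.09 ± 0.36 SE, Ifi44 by 2.04 ± 0.47 SE and the antiviral GTPase gene Mx2 by 1.81 ± 0.27 SE, each with 11 or 12 of 12 siMMP13 samples above the healthy median. Stat2, a transcription factor of the pathway, had a log2 fold change of 0.95 ± 0.16 SE, with 9 of 12 samples above the healthy range. Irf1 was at 0.16 (edgeR adjusted p = 0.45), and at 0.40 (adjusted p = 0.016) without the 4 libraries.

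The promoters of the interferon response genes Ifit3, Ifit1 and Oas1a and of the chemokine gene Cxcl10 are shown because they hold the core of the interferon-stimulated response element. It was searched on both strands as GAAA, any 2 bases and GAAA, in the 250 bases before an annotated start of transcription. The window of Ifit3 lies wholly, and that of Oas1a partly, inside the annotated span of its gene. Both windows therefore precede a start downstream of the outermost end of the gene. They are taken from RefSeq with build GRCm38.p6 and printed 5′ to 3′ on the strand of the gene. Capitals mark the motif, which reads TTTC, any 2 bases and TTTC where it lies on the opposite strand, and in Oas1a 2 matches overlap.
Ifit3, chr19:34583279-34583528, plus strand: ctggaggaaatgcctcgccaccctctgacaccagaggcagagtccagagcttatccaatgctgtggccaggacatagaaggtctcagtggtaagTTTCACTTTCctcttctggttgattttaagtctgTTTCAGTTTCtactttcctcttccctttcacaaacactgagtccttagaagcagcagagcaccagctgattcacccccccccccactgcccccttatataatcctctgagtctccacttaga
Ifit1, chr19:34640639-34640888, plus strand: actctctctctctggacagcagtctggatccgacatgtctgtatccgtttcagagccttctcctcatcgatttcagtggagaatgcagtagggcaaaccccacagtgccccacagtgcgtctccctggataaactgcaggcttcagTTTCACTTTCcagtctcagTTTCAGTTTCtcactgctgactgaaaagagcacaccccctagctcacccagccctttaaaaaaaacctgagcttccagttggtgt
Oas1a, chr5:120907526-120907775, minus strand: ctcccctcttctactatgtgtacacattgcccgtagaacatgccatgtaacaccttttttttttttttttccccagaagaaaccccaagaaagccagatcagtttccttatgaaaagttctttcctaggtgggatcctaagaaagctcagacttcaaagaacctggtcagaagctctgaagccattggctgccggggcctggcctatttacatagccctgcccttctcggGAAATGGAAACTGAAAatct
Cxcl10, chr5:92348890-92349139, minus strand: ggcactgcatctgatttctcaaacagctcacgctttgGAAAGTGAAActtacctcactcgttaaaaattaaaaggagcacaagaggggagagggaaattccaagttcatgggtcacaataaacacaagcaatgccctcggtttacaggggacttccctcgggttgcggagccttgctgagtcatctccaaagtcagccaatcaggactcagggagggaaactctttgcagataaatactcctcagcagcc
The motif was found in 936 of 27025 mouse promoters of this length (3.46%). It was found in 4 of the 12 interferon genes tested whose symbol matched a promoter (Ifit1, Ifit3, Oas1a and Stat2; 5 of the 17 did not match), in 2 of 14 matched chemokine genes (Ccl19 and Cxcl10), and in 9 of 145 matched genes among all tested (6.21%). A match describes the letters of this window and is not evidence of binding.

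Of 14 tested genes of the complement system, 6 were higher, 1 lower and 7 not called. The median log2 fold change was 0.37, and 8 were higher without the 4 libraries. Beside these counts, 34.7% of all genes tested were higher and 14.8% lower, and without the 4 libraries 82 of 196 were higher. C3ar1, the receptor for the fragment C3a on myeloid cells, ran from 155 to 2180 (median 422) in healthy and from 525 to 5320 (median 2410) in siMMP13 joints. All 12 siMMP13 samples lay above the healthy median and 8 above the healthy range (log2 fold change 1.99 ± 0.40 SE, edgeR adjusted p = 4.4e-06). C2, a protease of the classical pathway, rose by 1.41 ± 0.28 SE (medians 79.3 and 222), and Cfb, the corresponding protease of the alternative pathway, by 1.63 ± 0.58 SE (medians 380 and 1510). Masp1, a protease of the lectin pathway, was at least 1.55-fold higher, a bound because 1 of 12 healthy samples lay above the negative controls. C3 itself, the central component, was not called, and its 95% interval lay within 1.5-fold either way. Cd55, which inactivates complement convertases on cell surfaces, was the lower member, from a median of 494 (364 to 742) to 316 (40.9 to 446). All 12 siMMP13 samples lay below the healthy median, and the 3 lowest were the divergent libraries 7, 11 and 8 at 40.9, 79.7 and 165. Its log2 fold change was -0.83 ± 0.32 SE (edgeR adjusted p = 0.0011), and -0.51 without the 4 libraries (adjusted p = 0.0034).

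Classical cytokines moved little beside the chemokines. The list of IL-1, TNF and IL-6 families had 12 tested genes, of which 6 were higher and 3 lower (median 0.27), and 4 were higher without the 4 libraries. Over all genes tested 34.7% were higher and 14.8% lower, and 82 of 196 were higher without the 4 libraries. Il1b ran from 75.6 to 208 (median 172) in healthy and from 154 to 430 (median 224) in siMMP13 joints. The groups overlapped, with 7 siMMP13 samples above the healthy range. The log2 fold change was 0.52 ± 0.17 SE (edgeR adjusted p = 0.022), 0.30 (adjusted p = 0.17) without the 4 libraries, and not called without siMMP13 replicate 7 alone (adjusted p = 0.062).

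Tnf had medians of 51.7 (24.8 to 90.8) and 78.4 (40 to 151), a log2 fold change of 0.49 ± 0.20 SE (edgeR adjusted p = 0.022) and 3 siMMP13 samples above the healthy range. Its call was lost without the 4 libraries (0.40, adjusted p = 0.061) and without siMMP13 replicate 10 (adjusted p = 0.085). Il6 was scarce, exceeding the negative controls in 5 of 12 healthy samples and 8 of 12 with siMMP13, and was at least 1.19-fold higher (edgeR adjusted p = 0.0031). Il6ra, which encodes the receptor chain for IL-6, was higher by 0.38 ± 0.16 SE (edgeR adjusted p = 0.029), and 0.08 (adjusted p = 0.60) without the 4 libraries. The calls of Il1b, Tnf and Il6ra were also lost under TMM, DESeq2 size factor and total-count scaling.

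The calls of Il1rn and Il1r1, which restrain and receive IL-1, were lost in no alternative. Il1rn, the natural IL-1 receptor antagonist, had medians of 27.5 (18.2 to 37.2) and 42 (28.5 to 77.1), with 12 of 12 siMMP13 samples above the healthy median (log2 fold change 0.66 ± 0.15 SE, edgeR adjusted p = 0.00075). Il1r1, the signalling receptor, rose by 0.57 ± 0.11 SE, from a median of 148 (124 to 226) to 240 (158 to 328). Ltb, a TNF family member made mainly by lymphocytes, had the largest decrease of these families, at medians of 224 (143 to 300) and 128 (62.3 to 192). None of its siMMP13 values reached the healthy median (log2 fold change -0.84 ± 0.17 SE, edgeR adjusted p = 1.1e-05). Il18rap, a chain of the IL-18 receptor, had a log2 fold change of -0.70 ± 0.15 SE, and Il12a, 1 of 5 tested genes among the other interleukins and colony-stimulating factors, one of -0.52 ± 0.15 SE. Of that list Csf1, Il10rb and Il15 were not called, at 0.20 ± 0.28, 0.18 ± 0.21 and -0.18 ± 0.21 SE, while without the 4 libraries Csf1 (0.45, edgeR adjusted p = 0.038) and Il10rb (0.37, adjusted p = 0.017) were higher.

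Mmp3, which encodes stromelysin, a protease of cartilage matrix that also activates other metalloproteinases, ran from 38.2 to 1520 (median 135) in healthy and from 132 to 3330 (median 1570) in siMMP13 joints. The overlap came from healthy replicate 7 at 1520, a further healthy sample at 1270, and the divergent siMMP13 replicate 8 at 132. The log2 fold change was 2.29 ± 0.62 SE (edgeR adjusted p = 0.00014), and 2.47 without the 4 libraries. Mmp9, a gelatinase carried by neutrophils and osteoclasts, had medians of 3950 (1660 to 5040) and 3130 (1120 to 4770) and was not called (-0.30 ± 0.23 SE, edgeR adjusted p = 0.20). Without the 4 libraries it was lower (-0.48, adjusted p = 0.038).

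Eicosanoids are lipid mediators made from arachidonic acid. Of 15 tested genes of this list 3 were higher and 2 lower, with a median of -0.01, and without the 4 libraries 3 were higher and 7 lower. Among all genes tested 34.7% were higher and 14.8% lower, and without the 4 libraries 82 and 39 of 196. Ptgs2, the inducible cyclooxygenase, ran from 2.68 to 15 (median 7.64) in healthy and from 11.9 to 88 (median 32.9) in siMMP13 joints, with 11 of 12 siMMP13 samples above the healthy range. Because 2 of 12 healthy samples lay above the negative controls, the difference is given as at least 1.97-fold (edgeR adjusted p = 1.7e-06). Cysltr1, a receptor for cysteinyl leukotrienes, rose by 1.31 ± 0.27 SE (medians 36.1 and 93.6), and Ptgfr, the prostaglandin F receptor, by 0.64 ± 0.18 SE. Alox5, the 5-lipoxygenase, had medians of 294 (154 to 356) and 166 (99.4 to 236) and a log2 fold change of -0.70 ± 0.16 SE (edgeR adjusted p = 0.00014), and Ltb4r1, the receptor for leukotriene B4, one of -0.56 ± 0.14 SE. Ptgs1, the constitutive cyclooxygenase, was at -0.17 (edgeR adjusted p = 0.50), and at -0.68 (adjusted p = 0.0018) without the 4 libraries.

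Of 19 toll-like receptors and innate sensors, 5 were higher and 2 lower (median 0.24), and 9 were higher and 3 lower without the 4 libraries. The shares over all genes tested were 34.7% higher and 14.8% lower, and without the 4 libraries 82 and 39 of 196. Nod1, an intracellular sensor of bacterial cell wall fragments, had 119, 144 and 179 normalized counts in the lowest, median and highest healthy sample and 181, 195 and 234 in siMMP13 samples. It was the only tested gene whose groups did not overlap (0.51% of genes tested), although the difference was 1.38-fold (log2 fold change 0.47 ± 0.07 SE, edgeR adjusted p = 2.5e-05), and the call was lost under total-count scaling (adjusted p = 0.069). Without the 4 libraries 8 genes did not overlap, namely C2, Ccl5, Ccl8, Cxcl9, Masp1, Nod1, Ptgs2 and Tgfb3. Tlr9, a sensor of unmethylated DNA, had the largest fold change of the list, at medians of 81.1 (50.8 to 234) and 195 (32.4 to 606). Its groups overlapped, and its log2 fold change was 1.02 ± 0.43 SE (edgeR adjusted p = 0.0085), or 1.30 without the 4 libraries. Tlr1 rose by 0.71 ± 0.22 SE and Tlr2, its partner in sensing lipoproteins, by 0.46 ± 0.14 SE. Hmgb1, a chromatin protein that acts as an alarm signal when released, was lower, at medians of 1290 (987 to 1590) and 860 (344 to 1060), with 12 of 12 siMMP13 samples below the healthy median (log2 fold change -0.65 ± 0.16 SE, edgeR adjusted p = 5.1e-05). Hmgb2 also had a log2 fold change of -0.65, with a wider error (± 0.25 SE, edgeR adjusted p = 0.0055).

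Of 12 NF-kB and TNF receptor signalling genes, 4 were higher and 1 lower (median 0.05), near the 34.7% and 14.8% of all genes tested. Relb, a subunit of the noncanonical pathway, had medians of 191 (149 to 277) and 282 (199 to 374), with all siMMP13 samples above the healthy median (log2 fold change 0.47 ± 0.12 SE, edgeR adjusted p = 0.00053). Tradd, an adaptor of the TNF receptor, was at 0.47 ± 0.13 SE, and at 0.23 (edgeR adjusted p = 0.061) without the 4 libraries, and its call was also lost under total-count scaling (adjusted p = 0.13). Birc2, an inhibitor of cell death at that receptor, was at -0.36 ± 0.14 SE. Nfkb1 and Rela, the canonical subunits, were not called, and their 95% intervals lay within 1.5-fold either way.

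Of 22 MAP kinase and AP-1 genes, 1 was higher and 5 lower (median -0.11), beside 34.7% of all genes tested that were higher and 14.8% that were lower. Fos, an immediate early gene and part of AP-1, was the higher member, at medians of 161 (71 to 320) and 365 (238 to 558), with 10 of 12 siMMP13 samples above the healthy range (log2 fold change 1.09 ± 0.21 SE, edgeR adjusted p = 8.3e-06). Jun, its partner, was not called (0.63, adjusted p = 0.15) and its interval reached past 2-fold, while without the 4 libraries it was at 1.11 (adjusted p = 0.0034). Atf2, a transcription factor activated by stress kinases, had medians of 666 (557 to 740) and 513 (446 to 574), with 11 of 12 siMMP13 samples below the healthy range, at a log2 fold change of -0.33 ± 0.05 SE (edgeR adjusted p = 1.3e-05). Myc, a regulator of growth, was at -0.41 ± 0.07 SE, with 12 of 12 samples below the healthy median. Mapk14, the stress kinase p38 alpha, was at -0.26 ± 0.10 SE (edgeR adjusted p = 0.012), and at -0.15 (adjusted p = 0.088) without the 4 libraries.

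Growth and stress genes included some of the larger differences. Hspb1, a small heat shock chaperone, ran from 41 to 544 (median 109) in healthy and from 79.8 to 1970 (median 606) in siMMP13 joints. Of the siMMP13 samples, 10 lay above the healthy median and 7 above the healthy range (log2 fold change 2.02 ± 0.52 SE, edgeR adjusted p = 0.00023). Hif1a, the oxygen-sensing transcription factor, had medians of 561 (421 to 887) and 1050 (309 to 1640) and rose by 0.86 ± 0.25 SE (edgeR adjusted p = 0.00031), its 3 lowest siMMP13 values (309, 408 and 436) being those of the divergent libraries. Tgfb3, a growth factor of cartilage and scar formation, rose by 1.22 ± 0.36 SE (medians 169 and 355), and Flt1, a receptor for vascular endothelial growth factor, by 0.51 ± 0.13 SE, a call lost under total-count scaling (log2 fold change 0.26, edgeR adjusted p = 0.15). The growth factor genes Pdgfa (0.17 ± 0.20 SE) and Tgfb1 (-0.19 ± 0.13 SE) were not called, and Pdgfa was at 0.42 (adjusted p = 0.013) without the 4 libraries. Bcl2l1, which blocks mitochondrial cell death, was lower, at medians of 725 (501 to 885) and 428 (235 to 575), with 11 of 12 siMMP13 samples below the healthy range (log2 fold change -0.81 ± 0.13 SE, edgeR adjusted p = 2.5e-07).

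**Figure D3:**
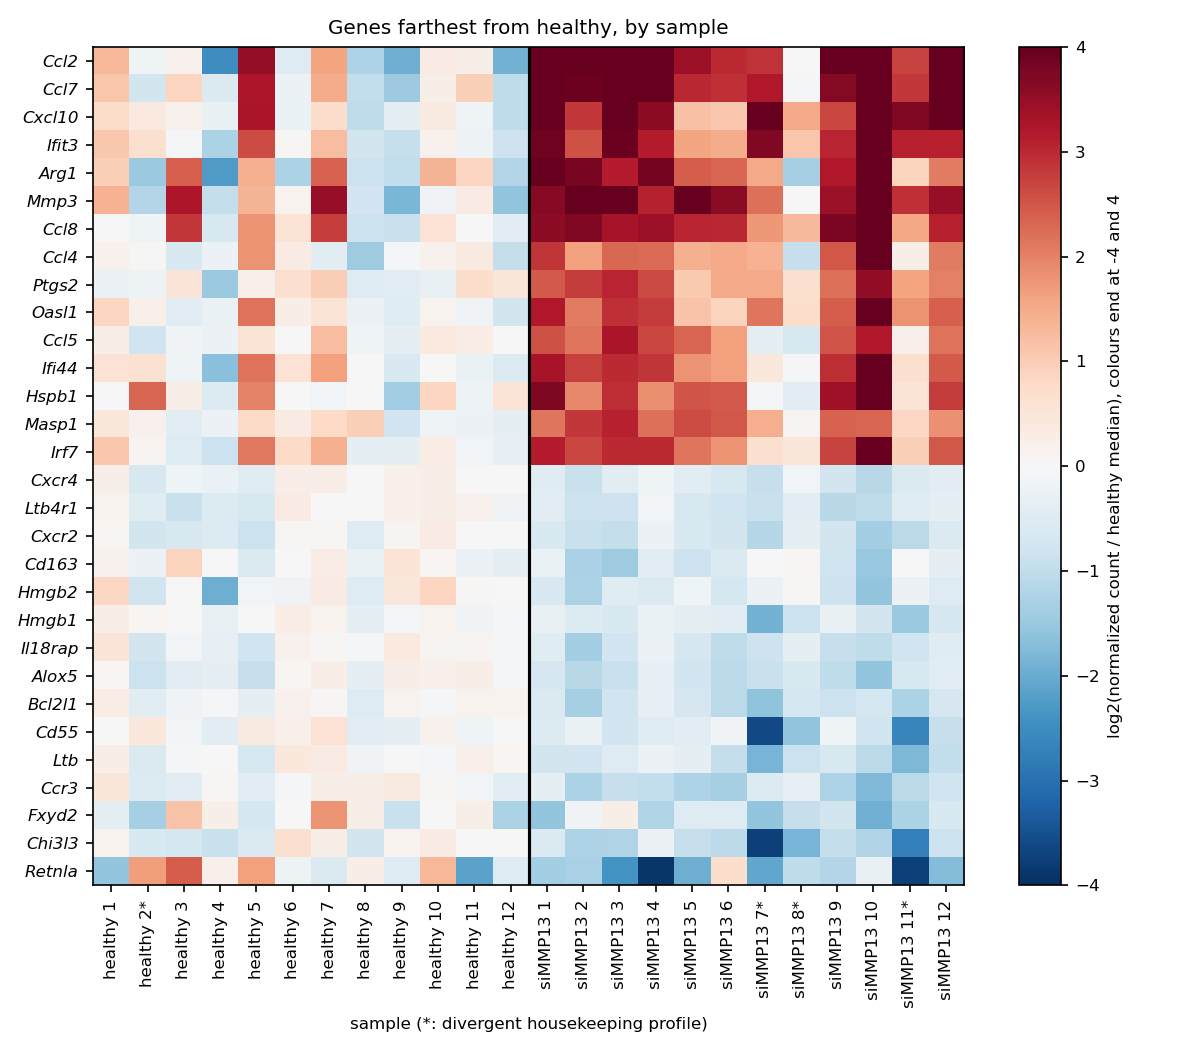
Each cell gives log2 of a sample's normalized count over the median of the healthy samples for the 15 called genes with the largest fold changes in each direction. Larger values share the end colours. Healthy replicate 5 is the highest healthy sample for Ccl2 (1210), Ccl7, Cxcl10 and Ifit3, and siMMP13 replicate 8 lies close to healthy for Ccl2 (104).

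Macrophage genes moved in opposite directions. Of 14 tested markers, 5 were higher and 4 lower (median 0.31), beside 34.7% and 14.8% of all genes tested. Their summed level was 15500 to 35200 in healthy and 19200 to 32700 in siMMP13 joints (mean log2 difference 0.05, permutation test, adjusted p = 0.87). This sum adds normalized counts, so abundant genes such as Tyrobp and Chi3l3 weigh heavily, and it does not measure the number of macrophages. Arg1, arginase of alternatively activated macrophages in the mouse, was at least 3.92-fold higher (edgeR adjusted p = 0.00025), with 6 healthy and 11 siMMP13 samples exceeding the negative controls. Retnla, another mouse marker of that state, was lower, at medians of 84 (19 to 449) and 28.7 (5.56 to 136). The groups overlapped, with 3 siMMP13 samples below the healthy range (log2 fold change -1.88 ± 0.53 SE, edgeR adjusted p = 0.00028). Chi3l3 (now Chil3), a lectin of the same state, ran from 4480 to 13000 (median 8320) in healthy and from 624 to 7050 (median 3850) in siMMP13 joints. All 12 siMMP13 samples lay below the healthy median and the 3 lowest (624, 1250 and 2290) were the divergent libraries, and its log2 fold change was -1.06 ± 0.32 SE (edgeR adjusted p = 0.00035), or -0.83 without the 4 libraries.

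The scavenger receptor genes of resident macrophages were lower, Cd163 by a log2 fold change of -0.60 ± 0.20 SE (edgeR adjusted p = 0.013) and Mrc1 by -0.39 ± 0.12 SE (adjusted p = 0.0014). Trem2, a lipid-sensing receptor of macrophages, was higher, at medians of 90.4 (40.4 to 156) and 152 (67.9 to 265), with a log2 fold change of 0.78 ± 0.20 SE (edgeR adjusted p = 0.00034). Cd86, a costimulatory molecule, had medians of 88.7 (47.6 to 129) and 137 (86.3 to 288) and rose by 0.75 ± 0.18 SE (edgeR adjusted p = 8.7e-05). Its highest siMMP13 values, 288 and 229, were those of the divergent libraries 7 and 11. Without the 4 libraries its log2 fold change was 0.45 (edgeR adjusted p = 0.0032).

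Other tissue markers showed no called shift of their sums. These sums are also weighted toward their most abundant genes, so they do not settle whether a cell type changed. Lymphocyte and antigen presentation markers (10 of 12 with a probe) summed to 994 to 2830 in healthy and 1590 to 2210 in siMMP13 joints (mean log2 difference 0, permutation test, adjusted p = 0.98). Cd40, a costimulatory receptor, was not called (0.29 ± 0.29 SE, edgeR adjusted p = 0.26), and was at 0.47 (adjusted p = 0.033) without the 4 libraries. Muscle markers (6 of 7 with a probe) summed to 717 to 3920 and 554 to 4270 (0.19, adjusted p = 0.87; 0.66 without the 4 libraries). Among them Myl2, a myosin light chain of slow and cardiac muscle, ran from 10.7 to 788 and from 22.1 to 2200, and its call (log2 fold change 1.68 ± 0.85 SE, edgeR adjusted p = 0.044) was lost in 10 of 20 alternatives, while without healthy replicate 5 the log2 fold change was 2.39. Fxyd2, a regulator of the sodium pump, had a log2 fold change of -0.97 ± 0.32 SE. Mef2a, a muscle transcription factor, was at -0.53 ± 0.21 SE (edgeR adjusted p = 0.01), and the related Mef2d was not called (0.18 ± 0.14 SE), but was at 0.37 (adjusted p = 0.024) without the 4 libraries. The adipocyte marker Cfd had medians of 2760 (321 to 5530) and 1630 (340 to 4080) and was not called (-0.53 ± 0.45 SE, edgeR adjusted p = 0.18), but was called lower with TMM, DESeq2 size factor and total-count scaling. The part of muscle or fat in the other genes was not tested, and log2 Myl2 as a covariate left 91 of the 97 genes called, among 104.

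Of the 196 genes, 99 were not called, which does not show that they matched healthy joints. For 55 of them the 95% interval of the mean log2 difference lay within 1.5-fold either way, among them Nfkb1, Rela, Mapk8, Traf2, Nlrp3 and C3. For 10 genes it reached past 2-fold (Cxcl2, Cxcl3, Ifi27l2a, Jun, Bcl6, Nfatc3, Alox15, Il1a, Cfd and C7), so a 2-fold difference was within reach of the error. Nos2, the inducible nitric oxide synthase, was scarce, exceeding the negative controls in 5 healthy and 6 siMMP13 samples, and was not called (0.39 ± 0.22 SE, edgeR adjusted p = 0.20).

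The distance from healthy was then set beside that of the other loaded groups, which share the healthy samples. In untreated loaded joints 91 genes were called against healthy (46.4%), 62 higher (31.6%) and 29 lower (14.8%). In siNEG joints 98 were called (50%), 74 higher (37.8%) and 24 lower (12.2%). Ccl2 had a log2 fold change of 3.47 ± 0.67 SE with siMMP13, 3.35 ± 0.57 in untreated and 3.19 ± 0.56 in siNEG joints. Mmp3 was at 2.29 ± 0.62, 2.32 ± 0.55 and 2.55 ± 0.56 SE in the same order, and Ifit3 at 2.58 ± 0.44, 2.23 ± 0.35 and 2.33 ± 0.37 SE. Cxcl10 was at 2.96 ± 0.52, 2.07 ± 0.40 and 2.16 ± 0.43 SE, and Chi3l3 at -1.06 ± 0.32, -0.53 ± 0.22 and -0.71 ± 0.20 SE. Hspb1 lay nearer to healthy with siMMP13 by its fitted values, at 2.02 ± 0.52, 2.62 ± 0.43 and 3.03 ± 0.39 SE. These genes are examples, and none of them was called between siMMP13 and another loaded group.

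**Figure D4:**
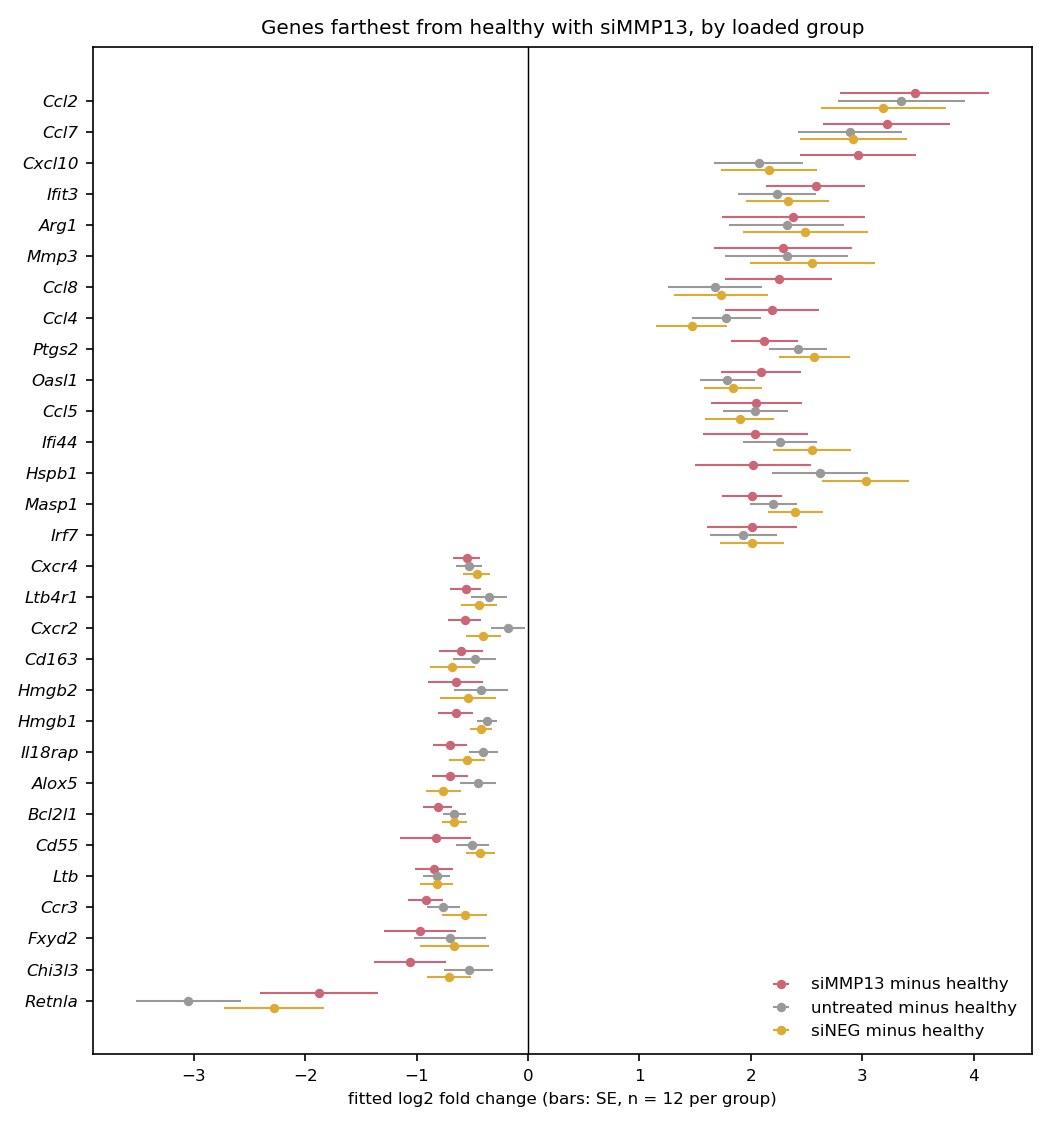
Fitted log2 fold change against healthy joints (x axis, bars give the SE, n = 12 per group) for siMMP13, untreated and siNEG loaded joints, for the genes farthest from healthy with siMMP13. For Mmp3 the points are 2.29, 2.32 and 2.55, and the 3 groups share the same healthy samples. Points of Arg1, Ccl4, Ptgs2 and Masp1, and of Retnla in untreated joints, are fitted values near background.

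The direct tests between loaded groups asked whether siMMP13 lay nearer to healthy or farther from it. Of the 97 genes, 3 differed between siMMP13 and untreated joints (3.09%). Over all 196 genes tested 7 differed (3.57%, 2.04% higher and 1.53% lower). All 3 of the 97 were farther from healthy with siMMP13. The 97 were selected by the siMMP13 distance from healthy, which leaves out genes near the healthy level with siMMP13. The direction of these calls, and of those against siNEG below, is partly set by this selection, so no conclusion is drawn from it. Ccl19 was higher than in untreated joints by 0.84 ± 0.17 SE (edgeR adjusted p = 0.0037, 12 of 12 siMMP13 samples above the untreated median). Cd86 was higher by 0.60 ± 0.16 SE (adjusted p = 0.01, 11 of 12). Myc was lower, at -0.35 ± 0.09 SE (adjusted p = 0.0097, 12 of 12 below). Without the 4 libraries Ccl19 was at 0.60 (adjusted p = 0.02), Myc at -0.33 (0.028) and Cd86 at 0.37 (0.088). Of these only Myc passed both this test and that against healthy without the 4 libraries. With all samples, untreated joints were not called against healthy for Ccl19 (log2 fold change -0.21, edgeR adjusted p = 0.32) or Cd86 (0.15, adjusted p = 0.44). For both, being farther does not mean that a difference called in untreated joints grew.

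Against siNEG joints 7 of the 97 genes differed (7.22%, against 6.12% of all genes tested, 1.53% higher and 4.59% lower), 2 nearer to healthy and 5 farther. This count, taken over the genes called against healthy in the same fit, was 1 without siMMP13 replicate 1 or siNEG replicate 10. It was also 1 with the replicate block or without Gusb or Tubb5 in the scaling. Leaving out any single one of a further 12 samples of these groups gave 2 to 4. Nearer were Ptgfr (-0.55 ± 0.20 SE, adjusted p = 0.043) and Flt1 (-0.43 ± 0.14 SE, adjusted p = 0.043), both also called higher than healthy in untreated and siNEG joints. Farther were Trem2 (0.67 ± 0.18 SE, adjusted p = 0.028), Il6ra (0.49 ± 0.17 SE), Atf2 (-0.26 ± 0.04 SE, adjusted p = 0.0063), Myc (-0.28 ± 0.07 SE) and Mafk (-0.33 ± 0.10 SE). Trem2 was not called against healthy in siNEG joints (0.11, edgeR adjusted p = 0.61), but was in untreated joints (0.49, adjusted p = 0.025). Between siMMP13 and siNEG joints without the 4 libraries, Trem2 (0.80, adjusted p = 0.0062) and Atf2 (-0.24, adjusted p = 0.02) were called. Ptgfr and Flt1 (both adjusted p = 0.20), Il6ra (0.23, adjusted p = 0.35), Myc (-0.26, adjusted p = 0.11) and Mafk (-0.25, adjusted p = 0.15) were not. How closely the 97 genes were resolved between loaded groups varied. For some the difference was bounded within 1.5-fold, and for others a 2-fold difference was within reach of the error. The 95% interval of siMMP13 minus untreated lay within 1.5-fold for 44 and reached past 2-fold for 25, and for siMMP13 minus siNEG these counts were 39 and 27.

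Some genes not called against healthy did differ between loaded groups. Over all 196 genes, 7 were called against untreated and 12 against siNEG joints, of which 3 and 7 were among the 97. Those named here are examples, chosen after their values were seen, and not all such genes are named. Il1rap, the IL-1 receptor accessory chain, had a median of 84.3 (63.2 to 104) in healthy, 89 (69.2 to 100) in siMMP13 and 108 (89.6 to 133) in untreated joints. It was 0.42 higher than healthy on the log2 scale in untreated joints (edgeR adjusted p = 6e-05), and its siMMP13 interval against healthy lay within 1.5-fold. It was lower with siMMP13 than in untreated joints (-0.36 ± 0.06 SE, adjusted p = 0.0077) and than in siNEG joints (-0.31 ± 0.07 SE, adjusted p = 0.028). H2-Eb1, an antigen-presenting class II chain, had medians of 1310 in healthy, 1270 in siMMP13 and 910 in untreated joints, and was below healthy in untreated joints (-0.42, adjusted p = 0.005) and higher with siMMP13 than without treatment (0.44 ± 0.09 SE, adjusted p = 0.027). Its difference between siMMP13 and siNEG joints was not called (0.33 ± 0.10 SE, adjusted p = 0.12). Tyrobp, a myeloid signalling adaptor, was higher with siMMP13 than in untreated joints (0.63 ± 0.16 SE, adjusted p = 0.0097) and not called against healthy (0.21, adjusted p = 0.26), with values of 19800, 15100 and 11900 in the divergent siMMP13 libraries against a healthy maximum of 11000.

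Samples of the siMMP13 group varied widely in how many genes lay beyond the healthy range. Of the 68 higher genes, a siMMP13 sample had 8 to 59 above the highest healthy sample (median 35), against 15 to 50 in siNEG (median 38.5) and 17 to 54 in untreated joints (median 31). Of the 29 lower genes a siMMP13 sample had 4 to 21 below the lowest healthy sample (median 12.5). Both sets of genes were selected by the siMMP13 distance from healthy. The counts of the loaded groups are therefore not on an even footing, and no conclusion is drawn from comparing them. Replicate 8, a divergent library, was the lowest siMMP13 sample for 31 of the 68 higher genes. Healthy replicates 5 and 7 were the highest healthy sample for 25 and 23 of them, and 100 genes were called without healthy replicate 5, 96 of them among the 97.

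**Figure D5:**
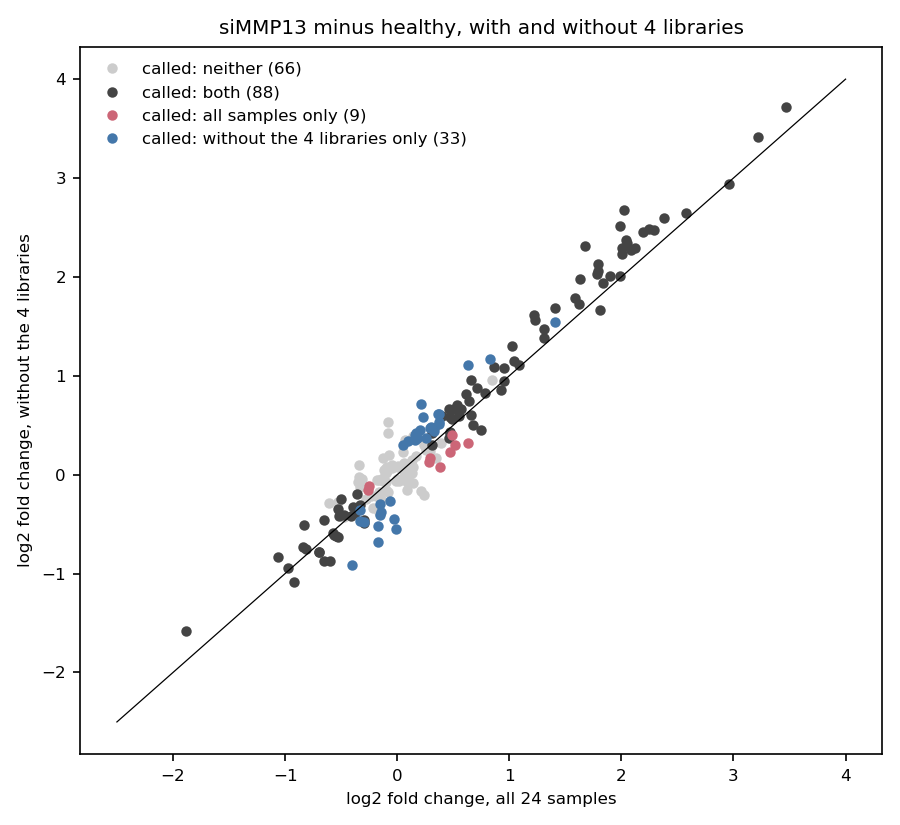
Log2 fold change of siMMP13 minus healthy with all 24 samples (x axis) against the value without the 4 libraries with divergent housekeeping genes (y axis), 1 point per gene, coloured by which fit called it. In both fits 88 genes are called, 9 only with all samples and 33 only without the 4 libraries.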

How the data were processed

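Per the labels' protocols, RNA of synovium and of cartilage with subchondral bone was measured on the nCounter mouse inflammation panel. The authors deposited raw counts of each probe as whole numbers, and the sources used here record no normalization. The table holds 268 probes, of which 248 are endogenous genes, 6 housekeeping genes, 6 positive and 8 negative controls. No count was 0 and 142 were 1. Of the gene probes 248 matched a current symbol and 6 a synonym in RefSeq. The sampling design gives 12 samples per group by title, and p-values reflect only the spread among those samples, part of which may be technical.

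Scaling divided by the geometric mean of the housekeeping genes (Tubb5, Pgk1, Hprt, Gusb, Gapdh and Cltc). Genes over 20 counts in at least 12 of 48 samples were tested with edgeR 4.0.16 (quasi-likelihood, R 4.3.3), fitted to all 4 groups, with Benjamini-Hochberg adjustment over the 196 genes and calls at adjusted p under 0.05. SE and 95% intervals (Welch) come from log2(normalized count + 1), log2 fold changes from the fit. A gene above the lane's negative control mean plus 2 SD in 6 or fewer samples of a group has its fold given as a bound, with that group raised to the limit. Marker sums add the normalized counts of a list, unweighted, and were compared by a two-sided permutation test with 100000 resamples. The code was tested on simulated data.

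Genes are named as the 15 called with the largest fold change in each direction, up to 4 of each list by p, 9 genes chosen by name (Arg1, Il1b, Il1rn, Il6, Mmp3, Mmp9, Nos2, Ptgs2 and Tnf), and called genes that differ between loaded groups. Other genes were named after their values were seen, and 1 gene is not reported here. The members, lists and tests were chosen with earlier results of these data known. Alternatives were scaling, filter, background, test (DESeq2 1.42.0, limma 3.58.1), samples in the fit, replicate block, Myl2 as a covariate, libraries left out. The limit of 0.6 for divergent libraries was added after seeing the data, since the planned limit of 3 times the median removed 2 of the 4. Same-numbered siMMP13 and healthy samples did not pair, as 4 of 12 correlations exceeded 0.1 (-0.49 to 0.61). No 2 samples of a group agreed within sampling noise, since the lowest chi-square per degree of freedom was 3.11 in healthy and 7.17 in siMMP13 samples.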

Additional observations from a re-analysis of the deposited data

How the results depend on the processing

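Against the 97 genes called (68 higher, 29 lower), lower calls numbered 52 with TMM, 50 with DESeq2 size factors, 63 with total-count scaling and 44 with array weights, which called 129 in all (85 higher), and fits of only the groups compared called 83. With the replicate block 97 were called, 94 of them shared, but the replicate numbers did not pair the samples. No gene was called in opposite directions in any of the 21 alternatives. Leaving out each sample in turn gave 87 to 106 called genes, 59 to 74 higher and 28 to 33 lower, 3 to 4 against untreated and 1 to 7 against siNEG. Counts of genes differing between loaded groups take the genes called against healthy in the same fit, which are not always the 97. Those differing from untreated joints numbered 3 in the fit used, 9 with TMM, 10 with DESeq2 size factors, 7 with total-count scaling, 6 with the DESeq2 Wald test, 10 with array weights, 11 with Myl2 as a covariate and 1 (Myc) without the 4 libraries. Those differing from siNEG joints numbered 7 in the fit used, 4 with TMM, 4 with DESeq2 size factors, 4 without Cltc, 1 without Gusb, 2 without Hprt, 1 without Tubb5, 2 with no filter, 3 with limma and pseudocount 1, 2 with array weights, 2 in fits of only the groups compared, 1 with the replicate block, 2 without 2 divergent libraries and 3 without 4. The cause was not tested. The uncalled genes Csf1 (0 with TMM, -0.08 with total-count scaling), Il10rb (-0.01, -0.09), Pdgfa (-0.01, -0.07) and Mef2d (-0.07 with total-count scaling) reversed. Calls lost by leaving out 1 sample include Daxx and Tnf (siMMP13 replicate 10), Il1b (siMMP13 replicate 7), Ccr7 (healthy replicate 11), Il6ra (any of healthy replicates 2, 3 and 4 and siMMP13 replicates 7 and 11, adjusted p up to 0.096) and Myl2 (10 healthy and 3 siMMP13 samples, adjusted p up to 0.17), and Tgfb1 was called without healthy replicate 2. Low counts limit Arg1, Ccl4, Ptgs2, Masp1, Il6, Cxcl1, Cxcl2, Cxcl3 and Nos2, which lie near the negative controls.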
